A study of Homo sapiens with 12 samples.

Results

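The hepatocyte identity transcription factors described here are 9 genes, HNF4A, FOXA1, FOXA2, FOXA3, CEBPA, CEBPB, NR5A2, ONECUT1 and PROX1. They were taken by gene symbol from the 26364 named genes of the count table, and all 9 were found and passed the filter on low counts that left 13852 genes for testing. RNA was sequenced from HepG2, a human cell line that came from a liver cancer, after 0, 5, 10, 30 and 240 min with insulin, in 2 replicates per time point, and insulin receptor (IR) ChIP-seq peaks were available from 1 library of the same line. All cells were grown in EMEM with 10% serum. The time of each RNA library comes from its title. The treatment text of the RNA libraries gives 16 h in EMEM and then 3 nM insulin with albumin for 5 min, for the 0 min libraries too, and that of the ChIP library gives serum-free EMEM, insulin with albumin, a 30 min washout and 3 nM insulin. The protocol texts of the RNA and ChIP libraries appear to be exchanged in the labels, so which cells each text describes is uncertain. HepG2 is a single transformed line grown without other liver cell types, and the study describes its RNA-seq samples as biologically independent in an experiment done once. The labels name no culture for each replicate, so the p-values measure the spread between these libraries within that experiment. In such bulk RNA, fewer cells of a type and less RNA per cell cannot be told apart.

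These factors bind the promoters and enhancers of liver genes and each other's genes, and the network they form keeps a hepatocyte expressing plasma proteins, clotting factors and metabolic enzymes. HNF4A and NR5A2 are nuclear receptors. FOXA1, FOXA2 and FOXA3 are forkhead proteins that can bind closed chromatin, CEBPA and CEBPB are basic leucine zipper proteins, ONECUT1 (HNF6) carries a cut domain and a homeodomain, and PROX1 is a homeodomain protein. Insulin acts on the hepatocyte through IR and the kinase AKT, shutting down genes of glucose production and turning on genes of lipid synthesis. C/EBP proteins and FOXA2 are known for roles in the genes on either side of that switch.

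At 240 min of insulin CEBPA was 2.18-fold its level at 0 min, FOXA1 1.37-fold and HNF4A 1.23-fold, and these were the only 3 of the 9 factors that changed against 0 min (edgeR quasi-likelihood test with Benjamini-Hochberg adjusted p under 0.05, here the meaning of changed). No factor was called lower. With libraries scaled to spike-in RNAs CEBPA alone of the 9 was called, beside 1059 of the 13852 tested genes. Without that scaling 41.0% of all tested genes changed from 0 to 240 min, 20.6% higher and 20.4% lower. The median log2 change was 0.16 over the 9 factors and -0.0026 over all tested genes. At 5, 10 and 30 min none of the 9 factors changed, and the changed share of all tested genes was then 0%, 0.137% and 0.332%. An IR peak lay within 5 kb of 6 of the 9 genes and of 15.7% of all tested genes. Counting only peaks with scores above the median of all peaks left 3 of the 9, against 8.78% of tested genes.

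Libraries held 18347109 to 45005769 reads counted on genes. Hepatocyte markers (ALB, AFP, TTR, APOA1, APOB, SERPINA1 and TF) summed to 65949 to 81924 CPM (counts scaled to library size with edgeR's TMM factors) in every library. None of the 7 changed in any comparison by edgeR with TMM. ALB was just above the threshold at 240 against 0 min (log2 difference -0.29, edgeR adjusted p = 0.0503). With RLE normalization in edgeR it was called lower there (-0.29, adjusted p = 0.0475). Markers of the bile duct or of progenitors summed to 1117 to 1312 CPM, those of mesenchymal cells to 43.3 to 67.6, those of immune cells to 36.3 to 45.3 and those of endothelial cells to 2.21 to 4.15, with PTPRC listed at 0 and KRT7, VIM, COL1A2 and VWF under a mean of 1 CPM. Of these, CD24 (log2 change 0.39, adjusted p = 0.00153) and SOX9 (0.15, adjusted p = 0.0321) rose and ACTA2 fell (-0.30, adjusted p = 0.00215) from 0 to 240 min by edgeR, and with the ERCC scaling none of these 3 was called. Their part in the changes of the 9 factors was not tested. Synthetic ERCC RNAs took 1.59% to 2.36% of the counts, highest in replicate 2 at 10 min. Scaling the libraries to them in place of TMM shifted the median of all genes by -0.12 at 240 min, -0.33 at 10 min and -0.13 at 30 min against 0 min, on the log2 scale, and by 0.013 between 30 and 240 min. The comparisons of 5, 10, 30 and 240 min with 0 min share the same 2 libraries at 0 min.

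Levels of different genes were compared in TPM, which is scaled by transcript length as well as library size. HNF4A, which many liver genes need for their expression, stood first with 216 ± 24.4 TPM (SD, n = 10 libraries over all times), at the 95th percentile of the tested genes. FOXA1 followed with 80.3 ± 11.7 TPM and PROX1, a partner and repressor of nuclear receptors, with 77.0 ± 5.64. The ranges of these neighbours overlapped, with FOXA1 the higher in 6 of 10 libraries. FOXA2 came next with 48.9 ± 2.19 TPM, apart from PROX1 above it and CEBPA below it in all 10 libraries. CEBPA (22.5 ± 8.96 TPM), FOXA3 (22.2 ± 2.77), ONECUT1 (21.0 ± 1.86) and CEBPB (19.5 ± 1.23) lay close together near the median gene, and each overlapped the next in this order. NR5A2, a receptor that drives bile acid genes, was last with 1.05 ± 0.114 TPM, below CEBPB in all 10 libraries, and rested on only 38 to 98 counts per library.

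**Figure D1:**
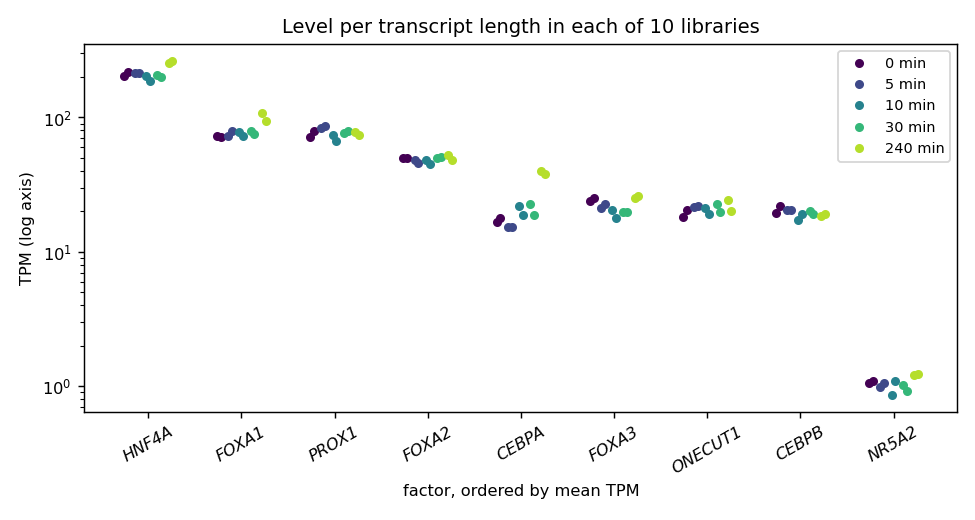
Level of each factor per transcript length (TPM, log axis) in each of the 10 libraries, coloured by time of insulin and ordered by the mean. HNF4A lies above every other factor and NR5A2 below every other, and the CEBPA points at 240 min stand above its other 8.

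The IR peaks give the places where the receptor antibody enriched DNA from HepG2 chromatin, 1971 in all, with scores from 13 to 14106 and a median of 79 in 1 library without a replicate. A peak within 5 kb was found at 6 of the 9 factors and at 15.7% of all tested genes. The peak near FOXA3 had the highest score of the 6, 1023, which ranks 140 of 1971 peaks, and lay at chr19:46366128-46366882 (hg19), 636 bases before the FOXA3 gene (chr19:46367518-46377055). It covers the start of SYMPK, a gene for an mRNA processing scaffold that runs the opposite way, and SYMPK is the gene to which the deposited annotation assigns it. The peak at FOXA2 (chr20:22564888-22565471, score 158, rank 598) lies inside the gene (chr20:22561642-22566101), with its centre 30 bases beyond the nearest annotated start, over coding and untranslated exon. The CEBPA peak (chr19:33793324-33793912, score 81, rank 966) covers the start of the single-exon CEBPA gene (chr19:33790840-33793470), and the annotation assigns it to CEBPA-AS1 on the opposite strand.

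Scores of the other 3 peaks lay below the median of the list. CEBPB (chr20:48807120-48809227) had a peak over its start at chr20:48806964-48807684 with a score of 57, rank 1222. The FOXA1 peak (chr14:38064582-38065351, score 35, rank 1571) lies 257 bases beyond the gene body of the deposited files (chr14:38058757-38064325). It is assigned to TTC6, which starts next to FOXA1 and runs the other way. The peak also holds 1 annotated start of FOXA1 outside that body and overlaps an annotated FOXA1 exon. PROX1 (chr1:214161278-214214847) had a peak over its start (chr1:214161040-214161390) with a score of 13, the lowest in the list, which 22 peaks share. HNF4A, the highest of the factors in RNA, had no peak closer than 702551 bases, NR5A2 none closer than 561634 and ONECUT1 none closer than 77549. The same 6 factors had a peak within 1 kb (14.1% of tested genes) and within 20 kb (21.3%). With only scores above the median FOXA2, FOXA3 and CEBPA remained (8.78% of tested genes), and by the nearest gene in the deposited annotation FOXA2, CEBPB and PROX1 did (8.58%).

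**Figure D2:**
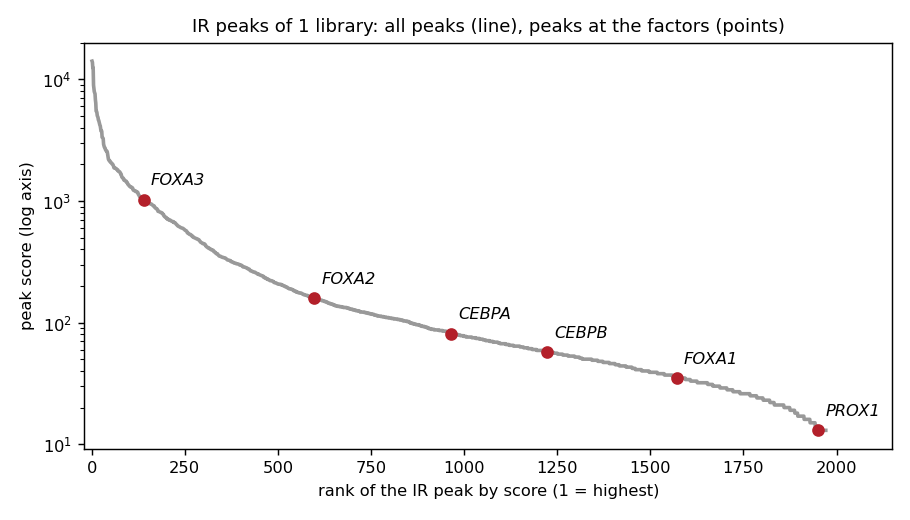
Score (log axis) of every IR peak of the 1 library against its rank, as a line, with the peaks at the factors as points. FOXA3 lies in the upper part of the list at rank 140, and PROX1 at the lowest score of 13.

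The sequences printed here are stretches of at most 300 bases from 3 of these peaks, at FOXA3, CEBPA and CEBPB. They hold no untranslated exon of a protein-coding gene and are read 5′ to 3′ along the strand of the factor from GRCh37. A longer such part was cut to the 300 bases nearest the annotated start of the factor. These stretches are shown because they lie in peaks of the receptor antibody near these factors, and whether they regulate a gene was not tested. Capitals mark the letters GGGCGG of the GC box or CACGTG of the E-box, searched on both strands, and no marked match overlaps another. The FOXA1 peak overlaps an untranslated exon of TTC6 and its sequence is left out, while the FOXA3 peak, which overlaps one of SYMPK, was clipped. The stretches are chr19:46366583-46366882 for FOXA3 and chr20:48806964-48807119 for CEBPB on the plus strand, and chr19:33793471-33793770 for CEBPA on the minus strand, which begins within the first bases of the noncoding CEBPA-AS1.
FOXA3: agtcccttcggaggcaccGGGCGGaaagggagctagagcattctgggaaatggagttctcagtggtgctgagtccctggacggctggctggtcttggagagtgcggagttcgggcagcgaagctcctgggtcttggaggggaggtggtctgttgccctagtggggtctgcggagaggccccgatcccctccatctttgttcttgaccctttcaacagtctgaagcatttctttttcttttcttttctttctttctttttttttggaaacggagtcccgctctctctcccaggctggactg
CEBPA: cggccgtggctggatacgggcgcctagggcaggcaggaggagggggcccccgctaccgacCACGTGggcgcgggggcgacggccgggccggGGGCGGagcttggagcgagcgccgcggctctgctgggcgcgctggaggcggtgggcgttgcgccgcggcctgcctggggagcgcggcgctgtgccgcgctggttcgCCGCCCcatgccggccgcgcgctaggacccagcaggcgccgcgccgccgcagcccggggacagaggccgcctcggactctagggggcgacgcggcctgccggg
CEBPB: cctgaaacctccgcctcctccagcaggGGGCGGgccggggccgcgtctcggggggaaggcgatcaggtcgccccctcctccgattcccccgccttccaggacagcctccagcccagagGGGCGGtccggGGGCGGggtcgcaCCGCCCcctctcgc

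CEBPA had the highest GC content of the 3 printed stretches, 81.3% with 48 CpG dinucleotides in 300 bases, and FOXA3 the lowest, 55.3% with 11 in 300 bases. CEBPB had 76.9%, with 16 CpG dinucleotides in 156 bases. In the 300 bases around the peak centre GC was 80.7% at CEBPA, 65.7% at FOXA3 and 74.3% at CEBPB. The median over all peak windows was 66.3%. Motifs were counted in the 300 bases around the centre of each of the 1971 peaks, windows that differ from the stretches printed here, and are described for FOXA1, FOXA3, CEBPA and CEBPB. A GC box was present at all 4, as in 67.2% of all peak windows. The E-box was present at CEBPA alone of the 4 (6.44% of windows) and the TATA box (TATAAA) at CEBPB alone (3.55%), and the letters CCAAT (28.8%) were at none. The letters of the HNF4 motif (CAAAGTCCA, 0.507% of windows), the forkhead motif (TGTTTAC, 3.86%), the HNF1 motif (GTTAATNAT, 0.304%), the C/EBP motif (TTGCNNAA, 6.39%), the CRE (TGACGTCA, 1.27%), an ETS motif (ACCGGAAGT, 1.12%) and a ZNF143/THAP11 motif (ACTACAATT, 3.4%) were in none of the 4 windows. Only these exact letters were searched, with N for any base. Sites that differ from them were not counted, and their presence was not tested.

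Of the C/EBP pair CEBPA rose at 240 min, and CEBPB did not pass the test. CEBPA, which holds hepatocytes in a differentiated and quiescent state, was at 18.1 and 18.9 CPM in the 2 replicates (0 min), 16.2 and 16.3 (5 min), 23.4 and 20.4 (10 min), 24.1 and 19.5 (30 min) and 41.9 and 38.9 (240 min). Both libraries at 240 min lay above the other 8, and those at 10 and 30 min lay above both at 0 min. The log2 change from 0 to 240 min was 1.12 (SE 0.088, 95% interval 0.94 to 1.31, edgeR adjusted p = 1.31e-08), and that from 30 to 240 min was 0.88 (SE 0.089, edgeR adjusted p = 2.67e-07). Leaving out each library of these times in turn gave 1.06 to 1.18 for the former, and scaling to the ERCC RNAs gave 1.01 (adjusted p = 3.28e-05), so CEBPA was the one factor changed under that scaling. The smaller differences at 10 and 30 min, 0.24 each on the log2 scale, did not pass the test (edgeR adjusted p = 0.815 and 0.492). The first of them turned to -0.072 with the ERCC scaling. At 5 min the log2 difference was -0.19 (95% interval -0.40 to 0.010).

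CEBPB, the member of the pair that responds to cytokines, fasting signals and growth factors, was at 17.3 and 18.6 CPM (0 min), 17.2 and 17.6 (5 min), 15.8 and 16.4 (10 min), 17.1 and 17.3 (30 min) and 15.9 and 15.8 (240 min). The 240 min libraries lay below both 0 min libraries and overlapped those at 10 min. The log2 difference from 0 min was -0.18 (95% interval -0.35 to -0.015) and did not pass the test over all genes (edgeR adjusted p = 0.0763). In TPM the ratio of CEBPA to CEBPB was 0.870 and 0.814 in the replicates at 0 min and 0.757 and 0.741 at 5 min. It was 1.28 and 0.987 (10 min), 1.13 and 0.981 (30 min) and then 2.15 and 1.98 (240 min). CEBPA was thus the lower of the pair before insulin and at 5 min, and the higher in both libraries at 240 min.

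Of the forkhead factors FOXA1 rose at 240 min against both 0 and 30 min, FOXA3 rose against 30 min only, and FOXA2 passed in no comparison. FOXA1 was at 99.8 and 97.6 CPM (0 min), 97.4 and 109 (5 min), 105 and 101 (10 min), 109 and 101 (30 min) and 145 and 125 (240 min). Both 240 min libraries lay above the other 8, with more spread between them than at any other time. The log2 change was 0.45 from 0 min (SE 0.066, 95% interval 0.32 to 0.59, edgeR adjusted p = 1.93e-05) and 0.36 from 30 min (SE 0.066, edgeR adjusted p = 0.00023). Leaving out each library in turn gave 0.34 to 0.55 for the change from 0 min, and the ERCC scaling gave 0.34 with an adjusted p of 0.288.

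FOXA3, known for its part in glucose and lipid genes of the liver, was at 19.6 and 20.3 CPM (0 min), 16.9 and 18.5 (5 min), 16.4 and 14.5 (10 min), 16.0 and 15.4 (30 min) and 19.9 and 20.2 (240 min). All 6 libraries from 5 to 30 min lay below the 4 at 0 and 240 min. The log2 differences from 0 min were -0.37 at 10 min (95% interval -0.54 to -0.19, edgeR adjusted p = 0.126) and -0.34 at 30 min (-0.52 to -0.17, edgeR adjusted p = 0.111), and they passed the threshold only when low genes were not filtered out (adjusted p = 0.021 and 0.0258). From 30 to 240 min FOXA3 rose by 0.35 on the log2 scale (SE 0.087, edgeR adjusted p = 0.0034), and with the ERCC scaling this was 0.36 with an adjusted p of 0.348. Between 0 and 240 min the log2 difference was 0.0044 (95% interval -0.17 to 0.18).

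FOXA2, the forkhead factor reported to be controlled by insulin through phosphorylation, was at 49.3 and 49.0 CPM (0 min), 46.7 and 45.5 (5 min), 46.8 and 44.7 (10 min), 49.3 and 48.6 (30 min) and 50.5 and 45.5 (240 min). The 240 min libraries lay on either side of those at 0 min, and the log2 difference was -0.029 (95% interval -0.15 to 0.096, edgeR adjusted p = 0.731). As shares of the summed TPM of the 3 FOXA genes, FOXA1 made up 49.4% and 48.8% at 0 min and 58.1% and 56.2% at 240 min. FOXA2 made up 34.1% in each 0 min library and 28.3% and 28.5% at 240 min. FOXA1 had the largest share in all 10 libraries, and it was largest in the 2 at 240 min.

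Of the nuclear receptors HNF4A rose at 240 min, and NR5A2 did not pass the test. HNF4A was at 372 and 394 CPM (0 min), 387 and 388 (5 min), 367 and 346 (10 min), 379 and 357 (30 min) and 473 and 469 (240 min). The replicates at 240 min were close to each other and above the other 8 libraries, among which those at 0 and 30 min overlapped. The log2 change was 0.30 from 0 min (SE 0.05, 95% interval 0.19 to 0.40, edgeR adjusted p = 0.000101) and 0.36 from 30 min (SE 0.051, edgeR adjusted p = 1.55e-05). It was 0.26 to 0.34 from 0 min with each library left out in turn. With the ERCC scaling the change from 0 min was 0.18 (adjusted p = 0.626) and that from 30 min 0.37 (adjusted p = 0.289). NR5A2 was at 2.18 and 2.2 CPM (0 min), 2.02 and 2.2 (5 min), 1.76 and 2.26 (10 min), 2.12 and 1.85 (30 min) and 2.48 and 2.42 (240 min). Both 240 min values were the highest of the 10, but the log2 difference of 0.16 had a 95% interval of -0.25 to 0.57 (edgeR adjusted p = 0.545), so a change of the size of that of HNF4A was not detectable at this depth.

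ONECUT1, which acts in the developing liver and bile ducts and in glucose metabolism, was at 12 and 13.7 CPM (0 min), 13.2 and 13.5 (5 min), 13.5 and 12.1 (10 min), 15.5 and 12.3 (30 min) and 15.4 and 14.2 (240 min). Both 240 min values lay above both at 0 min, and the log2 difference of 0.19 (95% interval -0.037 to 0.42) did not pass the test (edgeR adjusted p = 0.173). PROX1 was at 249.8 and 272 CPM (0 min), 279 and 295 (5 min), 252 and 233 (10 min), 261 and 260.2 (30 min) and 259 and 247 (240 min). Its highest values were the 2 at 5 min, where the log2 difference from 0 min was 0.14 (95% interval 0.025 to 0.25) without passing the test (edgeR adjusted p = 0.288). From 0 to 240 min it was -0.046 (95% interval -0.16 to 0.068).

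**Figure D3:**
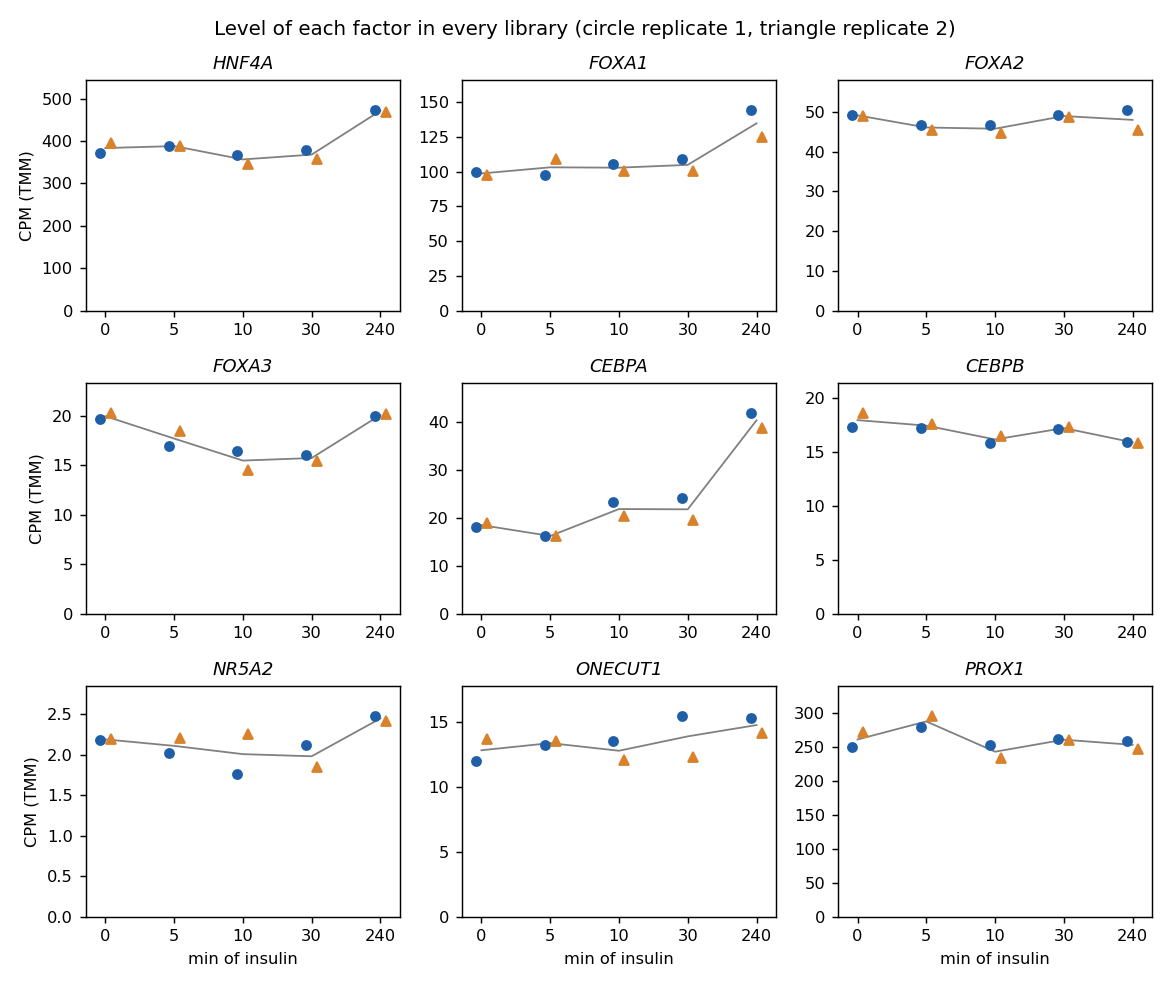
Level of each factor in every library (CPM after TMM) at 0, 5, 10, 30 and 240 min of insulin, with times evenly spaced and a line through the mean of the 2 replicates. The libraries at 240 min lie above all others for HNF4A, FOXA1, CEBPA and NR5A2, and FOXA3 is lowest at 10 and 30 min.

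A test of any difference among the 5 times called HNF4A (edgeR adjusted p = 1.89e-05), FOXA1 (8.18e-05), FOXA3 (0.00171), CEBPA (9.76e-09) and PROX1 (0.0147), 5 of the 9 factors, against 38.3% of all tested genes. FOXA2 (adjusted p = 0.427), CEBPB (0.266), NR5A2 (0.689) and ONECUT1 (0.453) were not called by it. Of the 5 called factors CEBPA alone was called with the ERCC scaling, and HNF4A (adjusted p = 0.165), FOXA1 (0.177), FOXA3 (0.0532) and PROX1 (0.386) were not. Between 30 and 240 min HNF4A, FOXA1, FOXA3 and CEBPA were called, all 4 higher, where 19.8% of all tested genes were called higher. In the first 30 min edgeR called none of the 9, and 2 at each of 5, 10 and 30 min had an unadjusted p under 0.05, FOXA3 at each of them, with PROX1 at 5 min and CEBPA at 10 and 30 min. Of the 13852 tested genes 1976 had such an unadjusted p by edgeR at 5 min, 710 at 10 min and 1125 at 30 min. Limma on log2(TPM + 1) also called 0 of the 9 at these times. DESeq2 gave an adjusted p only for HNF4A and PROX1 at 5 min and for all but NR5A2 at 10 and 30 min, and called none of these. Over all tested genes edgeR and DESeq2 called 0 at 5 min and limma 1.

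**Figure D4:**
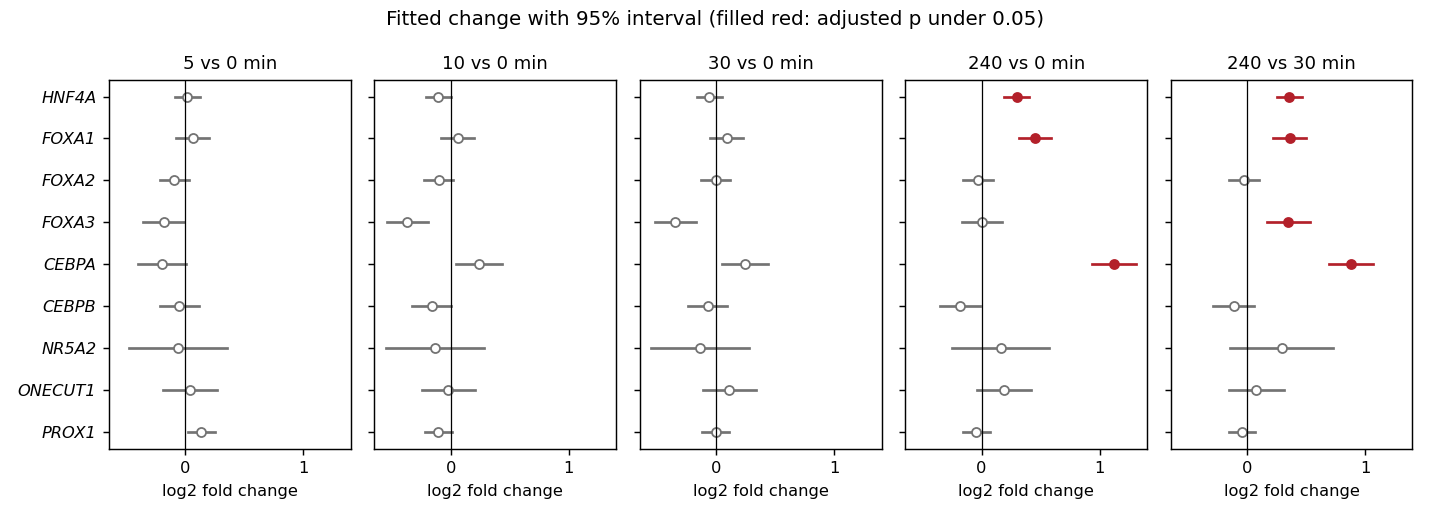
Fitted log2 fold change of each factor with its 95% interval in the 5 comparisons, filled red where the edgeR adjusted p is under 0.05. Red points are CEBPA, FOXA1 and HNF4A for 240 against 0 min, with FOXA3 beside them for 240 against 30 min.

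Genes next to the factors were read in the same way. CEBPA-AS1, a noncoding RNA that starts 293 bases from CEBPA on the opposite strand, was at 3.53 and 3.93 CPM at 0 min and 7.28 and 6.47 at 240 min, with 3.17 to 4.51 between. It rose as well, by 0.87 on the log2 scale from 0 min (edgeR adjusted p = 5.92e-05) and 0.85 from 30 min (adjusted p = 0.000119). TTC6, whose start lies 79 bases from FOXA1 on the opposite strand, rose from 14.6 and 13.9 to 24.3 and 20.7 CPM (log2 change 0.67, edgeR adjusted p = 8.61e-05). Its other libraries held 14.0 to 19.7 CPM. LINC00261, a noncoding RNA 2362 bases past the end of FOXA2 on the same strand, rose from 158 and 155 to 221 and 191 CPM (log2 change 0.40, edgeR adjusted p = 0.000102), while FOXA2 itself did not pass the test. With the ERCC scaling CEBPA-AS1 kept its call (adjusted p = 0.0234), and TTC6 (0.0706) and LINC00261 (0.395) lost it.

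SYMPK, under the strong peak beside FOXA3, was at 60.0 and 60.6 CPM at 0 min and 58.9 and 59.4 at 240 min (log2 difference -0.030, edgeR adjusted p = 0.692). HNF4A-AS1 (log2 difference 0.47, adjusted p = 0.0791), CEBPB-AS1 (0.60, adjusted p = 0.122) and PROX1-AS1 (0.34, adjusted p = 0.0957) did not pass at 240 min by edgeR. MIR3646 and LINC01384 were too low to be tested. Reads were counted with strand by the authors, which separates a factor from a transcript on the opposite strand.

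**Figure D5:**
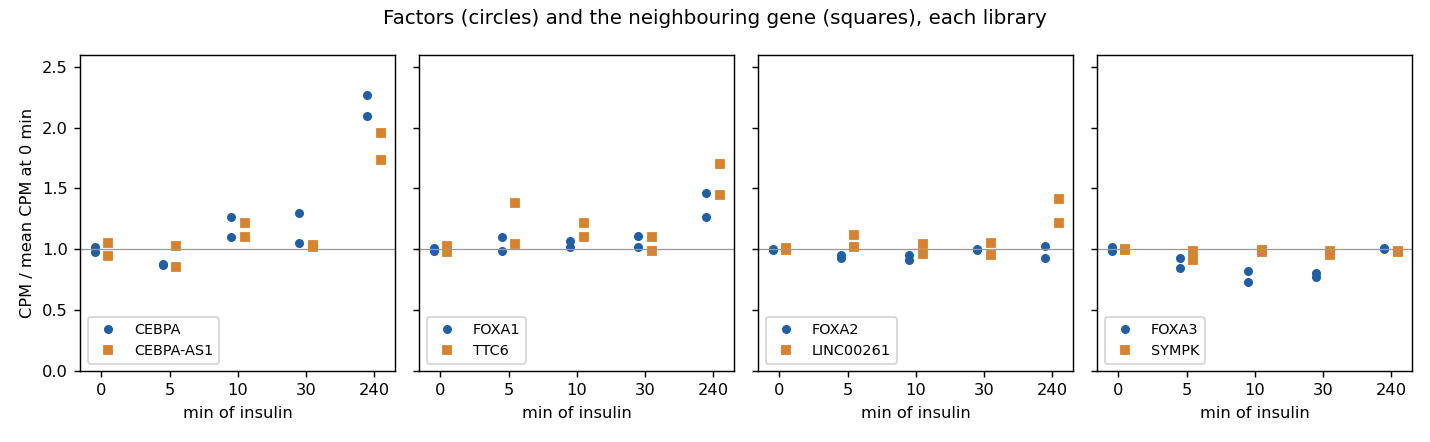
CPM of a factor (circles) and of its neighbouring gene (squares) in each library, divided by the mean of the 2 libraries at 0 min, at evenly spaced times. CEBPA and CEBPA-AS1 both stand near 2 at 240 min, LINC00261 is higher at 240 min beside FOXA2 near 1, and FOXA3 is lower at 10 and 30 min beside SYMPK near 1.

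The genes whose levels ran most like CEBPA over the 10 libraries, out of 10387 genes averaging 5 CPM or more, were OSGIN1 (Pearson r of log2 CPM 0.989), PDIK1L (0.986) and ZNF787 (0.982). OSGIN1, an oxidative stress response gene, rose by 1.09 on the log2 scale from 0 to 240 min (edgeR adjusted p = 6.89e-09), close to the 1.12 of CEBPA. PDIK1L, a kinase gene, rose by 1.13 (adjusted p = 1.42e-07) and ZNF787, a zinc finger gene, by 0.34 (adjusted p = 0.000629). For CEBPB, the factor with the lowest fitted difference at 240 min, the most alike were RAB37 (r = 0.921), RIC8B (0.904) and FAM219B (0.897). RAB37, a vesicle transport GTPase gene, fell by 0.34 (edgeR adjusted p = 0.0383), and RIC8B and FAM219B did not pass. OSGIN1 and PDIK1L kept their calls with the ERCC scaling, and ZNF787 (adjusted p = 0.536) and RAB37 (0.25) lost them. These coefficients describe 5 times with 2 libraries each and share the times and scaling. The genes were picked by likeness over the same 10 libraries. Their changes at 240 min and the p-values follow in part from that choice and are no separate evidence.

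Around the 9 factors, 27 other liver transcription factors were all tested, and at 240 min 6 were higher and 9 lower than at 0 min (median log2 change -0.073). Of all tested genes 20.6% were called higher and 20.4% lower in this comparison. HHEX, a homeodomain factor of liver development, rose most (0.67, edgeR adjusted p = 4.51e-08), from 52.7 and 51.6 CPM to 87.2 and 78.0. CEBPG, a partner of CEBPA and CEBPB, rose by 0.47 (adjusted p = 1.2e-06). ATF5 (0.34, adjusted p = 0.00181), GATA6 (0.27, adjusted p = 0.0212) and the nuclear receptor NR2F6 (0.26, adjusted p = 0.0179) rose less. With the ERCC scaling 1 was higher (HHEX) and 7 lower, beside 331 higher and 728 lower of the 13852 tested genes.

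The 5 largest falls among them were those of RXRB, CEBPD, NR0B2, NR1H2 and TBX3. RXRB, a shared partner of nuclear receptors, fell by 0.91 on the log2 scale (edgeR adjusted p = 3.52e-09), from 42.2 and 42.6 CPM to 22.2 and 23.1. CEBPD, a further C/EBP gene, fell by 0.74 (adjusted p = 0.000182), and NR0B2 (SHP), a repressor of HNF4A and NR5A2 in bile acid synthesis, by 0.67 (adjusted p = 4.2e-06). The sterol receptor NR1H2 fell by 0.65 (adjusted p = 3.97e-05) and TBX3 by 0.62 (adjusted p = 1.66e-07). NR0B2 was lower already at 30 min (edgeR adjusted p = 0.00986), when NR2F2 was the one factor called higher (adjusted p = 0.0269), but with the ERCC scaling neither was called (adjusted p = 0.911 for each). At 5 and 10 min edgeR called 0 of the 27.

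Products of hepatocytes, which these factors are known to control, were the other list. Of its 25 genes 23 were tested (F9 and TDO2 were too low), and at 240 min 1 was higher and 9 lower than at 0 min, with a median log2 change of -0.12. The 10 called stand beside 41.0% of all tested genes called, and the 9 lower beside 20.4% called lower. The one that rose was CYP7A1, the rate-limiting enzyme of bile acid synthesis (0.48, edgeR adjusted p = 0.02), from 18.7 and 22.3 to 34.6 and 22.5 CPM, and its replicates at 240 min differed more than those at 0 min. Among the lower genes whose mean reached 1 CPM the glucose-producing enzymes had the largest falls, G6PC with a log2 change of -2.07 (adjusted p = 2.21e-07) and PCK1 with -1.32 (adjusted p = 3.63e-07), before the amino acid enzyme TAT with -0.80 (adjusted p = 0.00163). G6PC went from 28.0 and 38.8 CPM to 10.2 and 5.57, and PCK1 from 12.7 and 11.9 to 5.36 and 4.31. The plasma protein gene AHSG (-0.40, adjusted p = 0.000452) and the bile acid enzyme CYP8B1 also fell (-0.38, adjusted p = 0.0352). With the ERCC scaling 0 were higher and 4 lower, beside 331 and 728 of all tested genes. RLE normalization gave 1 higher and 10 lower, beside 2828 and 2854 of all tested genes.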

How the data were processed

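The deposited files of the RNA-seq of HepG2 cells (5 times of insulin, 2 replicates each) and of 1 IR ChIP-seq library were used. Per the study's methods and the submitters' processing notes, the authors trimmed the single-end RNA reads with Trim Galore 0.6.4, aligned them to hg19 with STAR 2.6.1d and counted them as reverse-stranded on genes with featureCounts 1.6.4. The authors deposited these as raw counts, and deposited StringTie abundances in TPM, which are scaled for transcript length. For the ChIP-seq the authors used BWA 0.7.17-r1188 and MACS2 2.2.7.1 and deposited a peak score, with the HOMER distance to the nearest start. The versions of StringTie and HOMER are not given in the sources used here. The ChIP input library was not analysed here. The protocol texts of the RNA and ChIP libraries appear to be exchanged in the labels, so times were taken from titles.

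Counts of 26364 named genes were analysed in R 4.3.3 with edgeR 4.0.16 (TMM, filterByExpr, quasi-likelihood test, 1 model of the 10 libraries, Benjamini-Hochberg over 13852 genes, adjusted p under 0.05). The 92 ERCC rows, 1.59% to 2.36% of counts, entered neither the library sizes nor the tests. Standard errors are the absolute log2 change over the square root of F. Precision at a given depth was taken from the 95% intervals of the fits, and peak scores carry no interval because the read depth of the ChIP library is unknown. The fitting code was tested on simulated data. The alternatives were RLE normalization, scaling to ERCC totals, testing without a count filter or with 10 counts required in each library, a replicate block, only the times compared, DESeq2 1.42.0, limma 3.58.1 on log2 TPM with a pseudocount of 1 or 0.1 or on genes averaging 1 TPM or more, and each replicate left out in turn. Likeness was Pearson's r of log2 CPM. Peaks were joined to gene bodies extended by 5 kb, and sequence was read from GRCh37 with pysam 0.24.0 under Python 3.11.15. The sequences at FOXA2 and PROX1 are not reported here.

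All 9 factors were named. From each list up to 5 rises and 5 falls at 240 against 0 min with a mean of at least 1 CPM were named, as were all genes within 5 kb of a factor and the 3 most alike of the factors with the highest and the lowest fitted change. NR2F2 was named outside this rule, after its value was seen. The factors, lists and rules were chosen with earlier results of these data known. Lists were described by counts and medians only.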

Additional observations from a re-analysis of the deposited data

Results flagged for a closer look

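Over the longest interval of the time course, 30 to 240 min, 4 of the 9 factors rose in a direct test of these times, where 19.8% of all tested genes were called higher. The log2 level at 240 min minus that at 30 min was 0.36 for HNF4A, 0.36 for FOXA1, 0.35 for FOXA3 and 0.88 for CEBPA, and both libraries at 240 min were above both at 30 min for each. CEBPA kept its call with the ERCC scaling, and HNF4A (adjusted p = 0.289), FOXA1 (0.258) and FOXA3 (0.348) lost theirs by edgeR. For FOXA3 the values at 240 min overlapped those at 0 min. No library lies between 30 and 240 min, so when the rises began was not measured.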

How the results depend on the processing

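Each factor's log2 change in the 5 comparisons was recomputed under every alternative, 630 values in all. Of these 614 kept their side of the threshold, 9 had no adjusted p from DESeq2, 5 fell below it, all with the ERCC scaling, and 2 passed it, both FOXA3 without the filter on low counts. In 44 values, 0 of them past the threshold, the difference had the other sign, FOXA1 at 10 min among them (0.061, and -0.26 with the ERCC scaling). With the ERCC scaling 1 factor (CEBPA) was called at 240 against 0 min, 1 at 240 against 30 min and 1 at any time. The scaled totals rest on 92 synthetic RNAs in 2 libraries a time. Without the filter FOXA3 was the 1 factor called at 10 min and at 30 min. Of 6 factors with an IR peak, 3 were left with scores above the median and 3 by the nearest gene. Leaving out any replicate kept 3 factors at 240 against 0 min and 4 at 240 against 30 min.

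Over all genes, counts of changed genes at 240 against 0 min (5676) and 30 min (5297) became 1059 and 917 with the ERCC scaling. At 5 min (0) they became 2 with the ERCC scaling, 144 without the filter, 1 with a replicate block, 1 with only the times compared, 1 by each of the limma fits, and 0 to 21 with a replicate left out (21 without replicate 1 at 5 min and 3 without replicate 2 at 0 min). At 10 min (19) they became 74 without the filter, 45 with only the times compared, 0, 3 and 0 by limma with a pseudocount of 1, of 0.1 and on a mean TPM of at least 1, and 8 to 19 with a replicate left out. At 30 min (46) they became 4 with the ERCC scaling, 160 without the filter, 1, 2 and 2 by limma in the same order, and 17 to 46 with a replicate left out. The lowest were 8 without replicate 2 at 10 min and 17 without replicate 1 at 0 min. The causes were not tested. The split at 240 against 0 min, 2847 higher and 2829 lower, was 331 and 728 with the ERCC scaling and 2720 and 1673 by limma on log2(TPM + 1). The deviations of equally numbered libraries correlated at -0.12 to 0.13 between times, over 0.1 in 2 of 10 pairs. Such correlations cannot show whether equally numbered libraries were handled together. The replicate block gave 2917 higher and 2928 lower genes at 240 against 0 min and changed no call of a factor. Depth limits NR5A2 most, with 38 to 98 counts a library.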

Other observations

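Summed over the 9 factors, TPM was 475 and 504 in the libraries at 0 min and 447 to 507 at 5, 10 and 30 min. At 240 min the sums were 599.8 and 586, above the other 8 libraries, and HNF4A was the largest single part of the difference, from a mean of 209 ± 10.4 (SD, n = 2) at 0 min to 259 ± 7.59 at 240 min. FOXA1 went from 71.9 ± 0.42 to 101 ± 8.87 TPM and CEBPA from 17.3 ± 0.668 to 38.9 ± 1.48. The factor with the largest fold change, CEBPA, thus added the least TPM of the 3.

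Among markers of the bile duct or of progenitors, SOX9, a factor of the biliary lineage, was at 379.9 and 415 CPM (0 min), 486 and 489 (30 min) and 454 and 427 (240 min). It was called at 30 min (edgeR adjusted p = 0.0126) but not with the ERCC scaling (adjusted p = 0.911). Of the 4 tested markers of this list SOX9 was the only 1 called then, beside 0.332% of all tested genes. KRT19 (edgeR adjusted p = 0.970), EPCAM (0.940) and CD24 (0.910) were not called. None of the 9 hepatocyte factors was called at 30 min, and the difference between SOX9 and those factors was not tested.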
